A study of Mus musculus with 12 samples.

Results

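The DUSP and Sprouty genes reported here are Dusp1, Dusp4, Dusp5, Dusp6, Dusp7, Dusp10, Dusp14, Dusp16, Spry2 and Spry4, 10 genes whose products restrain MAP kinase signalling. Their probes were found on an Agilent mouse array by the transcript accession of each probe, which gave 12 probes of 9 genes among 18217 genes with a symbol and 41174 probes that are no controls. Of these probes, 8 belong to Dusp genes and 4 to Spry genes, with a pair of probes each for Dusp14, Spry2 and Spry4. No probe was matched by accession for Dusp5, which was not analysed here. The cells were 3T3-L1, a line of mouse embryonic fibroblasts that can become adipocytes in culture. The 4 groups were cells kept past confluence until day 0 and then harvested without hormones (0 h) or after 6 h with the differentiation mixture. Each was divided by a sucrose gradient into a non-polysomal pool (gradient fractions 5 to 7) and a polysomal pool (gradient fractions 9 to 11). The mixture held 0.5 mM IBMX (isobutylmethylxanthine), 1 µM dexamethasone and 5 µg/ml insulin, and its serum was fetal bovine where the growth medium of the 0 h cells had newborn bovine serum, so hormones and serum cannot be told apart. Each group had 3 replicates, which the methods call biological, on 12 one-color arrays, and all groups came from this one cell line.

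MAP kinases such as ERK, JNK and p38 are active when a threonine and a tyrosine of their activation loop carry phosphate. The dual-specificity phosphatases (DUSPs) remove both phosphates and so switch the kinase off, and many DUSP genes are themselves transcribed in response to the kinases, which closes a feedback loop. Sprouty proteins act further upstream and dampen the signal that passes from receptor tyrosine kinases through RAS to ERK. In cultured preadipocytes, ERK activity after hormonal induction is brief, and its timing bears on differentiation.

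The sequences upstream of Dusp1 and Dusp6 are shown because the RNA of both genes rose in both pools, and that of Dusp10 because its non-polysomal level did not move past the test. Each run is the 250 bases before the transcription start (RefSeq, GRCm38.p6), read 5′ to 3′ on the strand of the gene. They lie at chr17:26508473-26508722 on the minus strand for Dusp1, chr10:99262981-99263230 on the plus strand for Dusp6 and chr1:184034131-184034380 on the plus strand for Dusp10. Capitals mark every match to the cAMP response element TGACGTCA, its half-site TGACG, the AP-1 site TGANTCA, the ETS site CCGGAAGT, the TATA box TATAAA and the palindromic glucocorticoid response element (GRE), searched on both strands.
Dusp1: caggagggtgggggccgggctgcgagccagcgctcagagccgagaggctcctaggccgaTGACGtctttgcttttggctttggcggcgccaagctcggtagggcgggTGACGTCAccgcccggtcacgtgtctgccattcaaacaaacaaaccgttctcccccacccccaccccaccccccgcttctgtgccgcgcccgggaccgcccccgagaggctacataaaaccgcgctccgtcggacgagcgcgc
Dusp6: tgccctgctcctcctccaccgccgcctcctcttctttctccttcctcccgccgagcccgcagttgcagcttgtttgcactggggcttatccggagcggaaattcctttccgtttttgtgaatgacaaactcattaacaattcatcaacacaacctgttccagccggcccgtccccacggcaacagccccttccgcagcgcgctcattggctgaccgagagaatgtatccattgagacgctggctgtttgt
Dusp10: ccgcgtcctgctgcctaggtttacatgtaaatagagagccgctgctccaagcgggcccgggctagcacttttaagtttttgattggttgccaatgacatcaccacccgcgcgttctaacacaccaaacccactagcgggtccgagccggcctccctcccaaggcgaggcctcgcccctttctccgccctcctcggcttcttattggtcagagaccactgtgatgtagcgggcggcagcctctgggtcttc

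The Dusp1 run held the full cAMP response element at positions -143 to -136, where -1 is the last base before the start, and an extra half-site at -191 to -187. The full element contains the half-site on either strand, so these matches overlap. Of 32851 RefSeq promoter windows cut to the same length, 1.55% held the full element and 17.8% the half-site. Promoter windows of 8 of the 10 genes were searched, Dusp1, Dusp5, Dusp6, Dusp7, Dusp10, Dusp14, Dusp16 and Spry2. None was searched for Dusp4 and Spry4. The full element was matched in 1 of the 8 and the half-site in 3, namely Dusp1, Dusp5 and Dusp16. The windows of Dusp7, Dusp14 and Dusp16 do not end at the gene start that the same annotation gives, so they belong to another start site. No match to the AP-1, ETS, TATA or GRE letters was found in the 8 windows, against 6.75%, 2.88%, 12.4% and 0.387% of all windows. IBMX blocks the breakdown of cAMP, and the cAMP response element is bound by the CREB factors. The match is a description of the letters and not of binding.

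Levels are given as log2 background-subtracted intensity, scaled between arrays by spike-in RNAs, so a difference of 1 is a doubling, and levels of different probes cannot be set against each other. All differences were read from 1 limma fit of the 12 arrays, which gave the change from 0 h to 6 h in each pool and the polysomal minus non-polysomal difference at each time. The M-value is the polysomal change minus the non-polysomal change. A difference was called where it was above 1 or below -1 with an adjusted p (Benjamini-Hochberg over all probes) below 0.05. In RNA of whole cultures, a change in the number of cells that carry a transcript cannot be told apart from a change in the amount per cell. Between 55.7% and 60.9% of the probes of an array were well above background, and replicates correlated at r = 0.985 to 0.992 over all probes. The spike-ins were dimmer on the polysomal arrays of 6 h, with an offset of -0.48 to -0.21 against 0.05 to 0.17 on the other 9 arrays, and their use added 0.50 to every M-value. All 10 fibroblast and preadipocyte markers (Col1a1, Vim and others) were well above background on every array. Of 8 mature adipocyte markers, 4 were above background on every array and 2, Lep and Cfd, on none. Of the markers of other cell types, 2 of 5 macrophage genes (Csf1r, Cd14), 0 of 4 endothelial and 1 of 4 epithelial genes (Krt5) were well above background on every array. The log2 of the summed intensity of the macrophage markers was 8.60 to 8.73 on the non-polysomal arrays of 0 h. It was 9.64 to 9.85 on the polysomal arrays of 0 h. At 6 h it was 9.97 to 10.05 and 11.27 to 11.30 in these pools. The mean log2 level of Cd14 alone was 8.45, 9.65, 9.85 and 11.23 in the same order. Ptprc, a defining leukocyte marker, was well above background on 1 array and Itgam on none, and the part of these markers in the results below was not tested.

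At 6 h, RNA of Dusp1, Dusp4, Dusp6 and Dusp14 was higher in both pools, Spry4 was higher in the polysomal pool, and Dusp16 was close to background throughout. In the polysomal pool 7 of the 12 probes had risen, against 19.2% of all probes, and 0 had fallen, against 5.01%. No probe fell there at an unadjusted p below 0.05 in the limma fit either. In the non-polysomal pool 5 probes had risen, against 8.09% of all probes, and 1 had fallen, against 8.14%. The M-value was above 1 for 5 probes, against 12.1% of all probes, and below -1 for 0, against 1.31%, with 0 negative at an unadjusted p below 0.05. The median M-value of the 12 probes was 0.91 and that of all probes 0.49. A filter for signal well above background on all 3 arrays of at least 1 group kept 11 of the 12 probes. Among all probes that passed this filter, 27.0% had risen in the polysomal and 12.4% in the non-polysomal pool, and 17.0% had an M-value above 1.

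**Figure D1:**
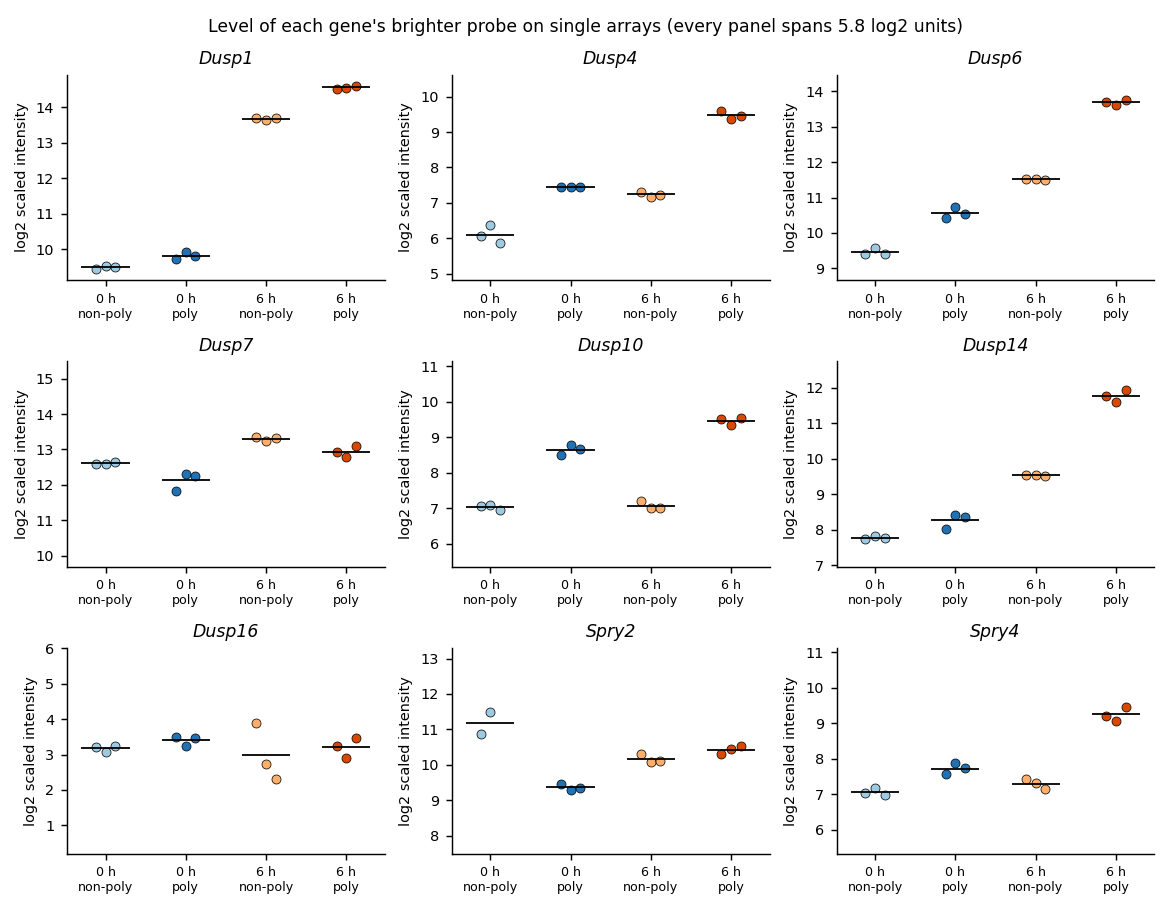
Log2 scaled intensity of the brighter probe of each gene (vertical axis, its own range per panel but the same span) on every array of the 4 groups (horizontal axis, 0 h or 6 h, non-polysomal or polysomal). Points are single arrays and lines are group means. In Dusp1, Dusp6, Dusp7 and Dusp14 all 6 arrays of 6 h lie above all 6 arrays of 0 h, by little in Dusp7, while the groups of Dusp16 overlap.

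Dusp1 encodes a nuclear phosphatase of p38, JNK and ERK that is an immediate-early gene in many cells. It lies at chromosome 17, 26505591 to 26508472 (GRCm38.p6), and was measured by probe A_51_P430900 for transcript NM_013642. The non-polysomal level of Dusp1 was 9.44, 9.52 and 9.49 at 0 h and 13.70, 13.64 and 13.70 at 6 h. Its polysomal level was 9.72, 9.92 and 9.80 at 0 h and 14.53, 14.55 and 14.62 at 6 h. The 4 groups did not overlap, and both pools of 6 h stood far above both pools of 0 h. The rise was 27.0-fold in the polysomal pool (log2 4.75 ± 0.07 SE, adjusted p = 1.8e-10) and 18.4-fold in the non-polysomal pool (4.20 ± 0.07 SE, adjusted p = 6.7e-10). Of all probes, 99.8% had a lower change in each pool. The M-value was 0.56 ± 0.10 (SE, adjusted p = 0.0019), near the median of all probes, and 56.0% of the probes had a lower one.

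Dusp4, a nuclear phosphatase induced by ERK, lies at chromosome 8, 34807610 to 34819894, and was measured by probe A_51_P518051 (NM_176933). The non-polysomal level of Dusp4 was 6.05, 6.36 and 5.86 at 0 h and 7.30, 7.18 and 7.23 at 6 h. The polysomal level of Dusp4 was 7.44, 7.45 and 7.45 at 0 h and 9.59, 9.37 and 9.46 at 6 h. Both pools moved up without overlap, and the 6 h polysomal arrays were the highest. The rise was 4.07-fold in the polysomal pool (log2 2.03 ± 0.12 SE, adjusted p = 2.4e-07) and 2.21-fold in the non-polysomal pool (1.14 ± 0.12 SE, adjusted p = 2.2e-05), and the latter was 0.84, below the limit of 1, in the deposited log2 values. The M-value of 0.88 ± 0.17 (SE) had an adjusted p of 0.0025 but stayed below the limit of 1. The order of its groups was non-polysomal 0 h, non-polysomal 6 h, polysomal 0 h, polysomal 6 h, and the middle pair did not differ beyond the spread (difference 0.21 ± 0.12 SE, adjusted p = 0.18).

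Dusp6 and Dusp7 encode cytoplasmic phosphatases selective for ERK, and they moved by unequal amounts. Dusp6 lies at chromosome 10, 99263231 to 99267489 (probe A_51_P502614, NM_026268). Its non-polysomal level was 9.42, 9.56 and 9.40 at 0 h and 11.53, 11.52 and 11.50 at 6 h. Its polysomal level was 10.41, 10.74 and 10.55 at 0 h and 13.70, 13.60 and 13.75 at 6 h. The groups did not overlap, and each step of their order, from non-polysomal to polysomal at 0 h and on to the same pools at 6 h, passed the test. The rise was 8.68-fold in the polysomal pool (log2 3.12 ± 0.09 SE, adjusted p = 3.7e-09) and 4.16-fold in the non-polysomal pool (2.06 ± 0.09 SE, adjusted p = 8.5e-08). The M-value was 1.06 ± 0.13 (SE, adjusted p = 2.0e-04), and within the 3 slides it ran from 0.91 to 1.18. Without replicate 1 of the 0 h polysomal arrays it was 0.98, below the limit of 1.

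Dusp7 lies at chromosome 9, 106368560 to 106375724 (probe A_52_P173197, NM_153459). On the non-polysomal arrays its level was 12.58, 12.58 and 12.65 at 0 h and 13.34, 13.24 and 13.32 at 6 h. On the polysomal arrays it was 11.83, 12.30 and 12.24 at 0 h and 12.92, 12.80 and 13.09 at 6 h. At both times the polysomal arrays lay below the non-polysomal arrays, the reverse of Dusp6. The increase was 1.75-fold in the polysomal pool (adjusted p = 3.0e-04) and 1.62-fold in the non-polysomal pool (adjusted p = 0.0011), and neither reached the limit of 1. The M-value was 0.12 with a 95% interval of -0.28 to 0.51 (adjusted p = 0.62), which is 0.37 below the median of all probes.

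Dusp10 and Dusp16 encode phosphatases that favour JNK and p38. Dusp10 lies at chromosome 1, 184034381 to 184075636 (probe A_51_P104418, NM_022019). Its non-polysomal level was 7.07, 7.09 and 6.93 at 0 h and 7.20, 6.99 and 6.99 at 6 h. Its polysomal level was 8.49, 8.79 and 8.67 at 0 h and 9.50, 9.36 and 9.55 at 6 h. The non-polysomal groups overlapped, and all polysomal arrays were above all non-polysomal arrays at both times. The non-polysomal change was 0.03 (95% interval -0.20 to 0.26, adjusted p = 0.86), and the polysomal change was 0.82 ± 0.10 (SE, 1.77-fold, adjusted p = 6.4e-05). Its polysomal excess was 3.08-fold at 0 h and 5.32-fold at 6 h, the largest of the lead probes at both times, and its M-value was 0.79 ± 0.14 (SE, adjusted p = 0.0021).

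Dusp16 (chromosome 6, 134715468 to 134807063, probe A_52_P492081, NM_130447) was dim. It was well above background on 7 arrays, of which 3 were non-polysomal and 3 polysomal at 0 h, 1 was non-polysomal at 6 h, and none was polysomal at 6 h. Its levels ran from 3.08 to 3.25 and from 3.23 to 3.49 in the non-polysomal and polysomal pools at 0 h, and from 2.32 to 3.88 and from 2.91 to 3.46 at 6 h. All 4 groups overlapped. The polysomal signal of 6 h was not well above background, and no contrast of Dusp16 passed the test.

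**Figure D2:**
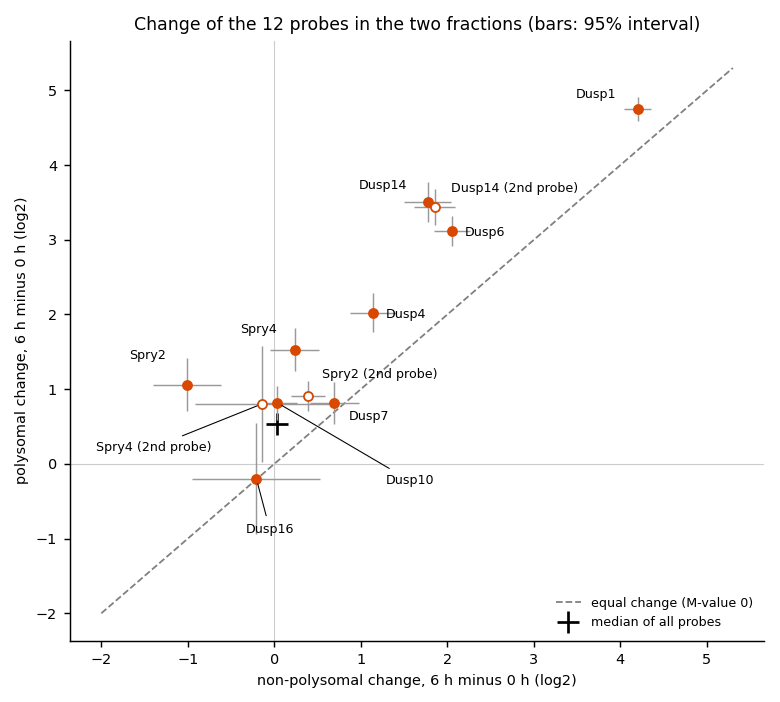
Change from 0 h to 6 h in the polysomal pool (vertical axis, log2) against the non-polysomal pool (horizontal axis, log2) for the 12 probes, with 95% intervals, where open circles are the dimmer probes of Dusp14, Spry2 and Spry4. The dashed line marks equal change and the cross the medians of all probes (0.54 and 0.04). Dusp1 stands at the top right with 4.75 and 4.20, and the brighter Spry2 probe is the only one with a called fall in the non-polysomal pool, -1.01.

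Dusp14 encodes a small phosphatase without the kinase-binding domain of the classical members. It lies at chromosome 11, 84048033 to 84069256, and both its probes (A_52_P297724 and A_51_P322677, NM_019819) were well above background on all 12 arrays. For the brighter probe the non-polysomal level was 7.75, 7.81 and 7.76 at 0 h and 9.54, 9.56 and 9.53 at 6 h. The polysomal level was 8.01, 8.42 and 8.37 at 0 h and 11.77, 11.60 and 11.96 at 6 h. The groups did not overlap, and the 6 h polysomal arrays stood furthest from the rest. The rise was 11.4-fold in the polysomal pool (log2 3.51 ± 0.12 SE, adjusted p = 8.3e-09) and 3.41-fold in the non-polysomal pool (1.77 ± 0.12 SE, adjusted p = 1.2e-06). The M-value was 1.74 ± 0.17 (SE, adjusted p = 5.7e-05), above that of 95.7% of all probes. The dimmer probe gave 3.45 and 1.85 for the changes in the polysomal and non-polysomal pools and an M-value of 1.59 ± 0.15 (SE, adjusted p = 4.8e-05). Within the 3 slides the M-value ran from 1.43 to 1.97 for the brighter and from 1.47 to 1.71 for the dimmer probe.

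Spry2 and Spry4 encode Sprouty proteins, which lie upstream of the phosphatases in the pathway and were measured by a pair of probes each. Spry2 lies at chromosome 14, 105891947 to 105896819 (NM_011897). For its brighter probe, A_51_P445153, the non-polysomal level at 0 h was 10.86 and 11.48 in replicates 2 and 3, and the spot of replicate 1 was marked as an outlier and left out. The other levels of this probe were 9.46, 9.30 and 9.35 (polysomal, 0 h), 10.30, 10.09 and 10.11 (non-polysomal, 6 h), and 10.31, 10.44 and 10.53 (polysomal, 6 h). At 0 h it was thus lower in the polysomal pool, by 1.80 on the log2 scale, and at 6 h the pools differed by 0.27 ± 0.15 (SE, adjusted p = 0.15). Its polysomal level rose 2.09-fold (adjusted p = 3.1e-04) while its non-polysomal level fell 2.01-fold (adjusted p = 0.0011). Both lay just past the limit of 1. The polysomal rise was 0.58 with scaling to the 75th percentile, and the fall was not called without replicate 3 of the 0 h, or replicate 2 or 3 of the 6 h, non-polysomal arrays. The M-value was 2.07 ± 0.23 (SE, adjusted p = 1.9e-04), and 2.18 with the omitted spot kept.

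The dimmer Spry2 probe, A_52_P368532, was well above background on all arrays but did not show the non-polysomal fall. In the non-polysomal pool its level was 9.28, 9.40 and 9.27 at 0 h and 9.73, 9.69 and 9.69 at 6 h. In the polysomal pool it was 8.64, 8.88 and 8.74 at 0 h and 9.65, 9.54 and 9.79 at 6 h. The probes thus moved alike in the polysomal pool, by 1.06 and 0.91, and opposite ways in the non-polysomal pool, by -1.01 and 0.39. The M-value of the dimmer probe was 0.52 ± 0.13 (SE, adjusted p = 0.0096), close to the median of all probes, so the called M-value of Spry2 rests on the brighter probe. With the mean of both probes the M-value was 0.98 and the non-polysomal change 0.01 (adjusted p = 0.99).

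Spry4 (NM_011898) was measured by probe A_52_P204311. Its non-polysomal level was 7.03, 7.16 and 6.96 at 0 h and 7.42, 7.30 and 7.13 at 6 h. Its polysomal level was 7.56, 7.87 and 7.73 at 0 h and 9.21, 9.07 and 9.47 at 6 h. The non-polysomal groups overlapped, and the polysomal arrays of 6 h stood above all others. The polysomal rise was 2.89-fold (log2 1.53 ± 0.13 SE, adjusted p = 3.1e-06), and the non-polysomal change was 0.23 (95% interval -0.05 to 0.52, adjusted p = 0.20). The M-value was 1.30 ± 0.18 (SE, adjusted p = 4.1e-04). The dimmer probe of Spry4, A_51_P250422, was well above background on 0 arrays, and its M-value of 0.94 (adjusted p = 0.15) describes signals near background.

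**Figure D3:**
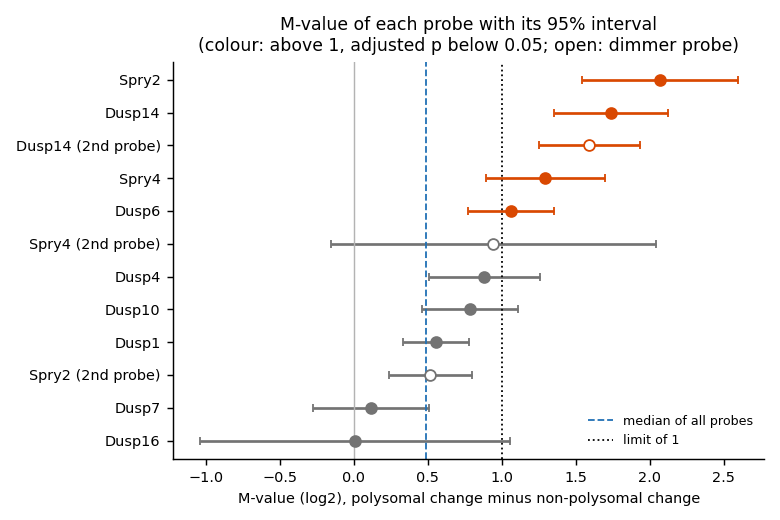
M-value of each of the 12 probes (horizontal axis, log2) with its 95% interval. Coloured probes passed the limit of 1 with an adjusted p below 0.05, open circles are the dimmer probes of a gene, and the dashed line is the median of all probes, 0.49. The pair of Dusp14 probes lies at 1.74 and 1.59, while the pair of Spry2 probes lies at 2.07 and 0.52.

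By M-value the brighter probes were ordered Spry2, Dusp14, Spry4, Dusp6, Dusp4, Dusp10, Dusp1, Dusp7 and Dusp16. Of these 9 genes, 7 had a positive M-value with an adjusted p below 0.05, the exceptions being Dusp7 and Dusp16, against 32.1% of all probes and 47.2% of those that passed the filter for signal. Of the 7, Dusp1 did not pass this test with scaling to the 75th percentile (0.13, adjusted p = 0.21), nor Dusp4 with quantile normalization (0.29, adjusted p = 0.20). Over the 23 settings of each gene, Dusp1 and Dusp4 passed in 21 and Dusp10 in 22. Their order by polysomal rise was another one, with Dusp1 first at 4.75, then Dusp14 at 3.51, Dusp6 at 3.12, Dusp4 at 2.03, Spry4 at 1.53, Spry2 at 1.06, Dusp10 at 0.82 and Dusp7 at 0.81. In the non-polysomal pool Dusp1 again came first at 4.20, followed by Dusp6 at 2.06, Dusp14 at 1.77 and Dusp4 at 1.14.

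The M-value of every probe depends on how the arrays are scaled. The median M-value of all probes was 0.49 with the spike-in offset, 0.06 with scaling to the 75th percentile, 0.00 with quantile normalization, 1.41 with a line drawn through the spike-ins of each array and 0.52 in the deposited log2 values. The share of called probes that were above 1, and not below -1, was 90.2%, 51.9% and 44.6% in the first 3 of these settings and 99.8% with that line. Dusp14 was called in every setting run, with an M-value of 1.20 to 2.18. The brighter Spry2 probe kept an M-value of 1.64 or more in these scalings. Spry4 fell to 0.87 and Dusp6 to 0.64 with the 75th percentile, and to 0.85 and 0.54 with quantile normalization, both below the limit of 1. Relative to the median of all probes, Dusp14 stood 1.25 above it with the spike-in offset and Dusp1 0.07 above it. With the line through the spike-ins the value minus this median was 1.17 for Spry2, 0.77 for Dusp14, 0.51 for Spry4 and 0.08 for Dusp4. It was -0.02 for Dusp10, -0.09 for Dusp6, -0.31 for Dusp16, -0.67 for Dusp1 and -1.04 for Dusp7. The rises of Dusp1, Dusp4, Dusp6, Dusp14 and Spry4 in the polysomal pool were called in every setting.

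**Figure D4:**
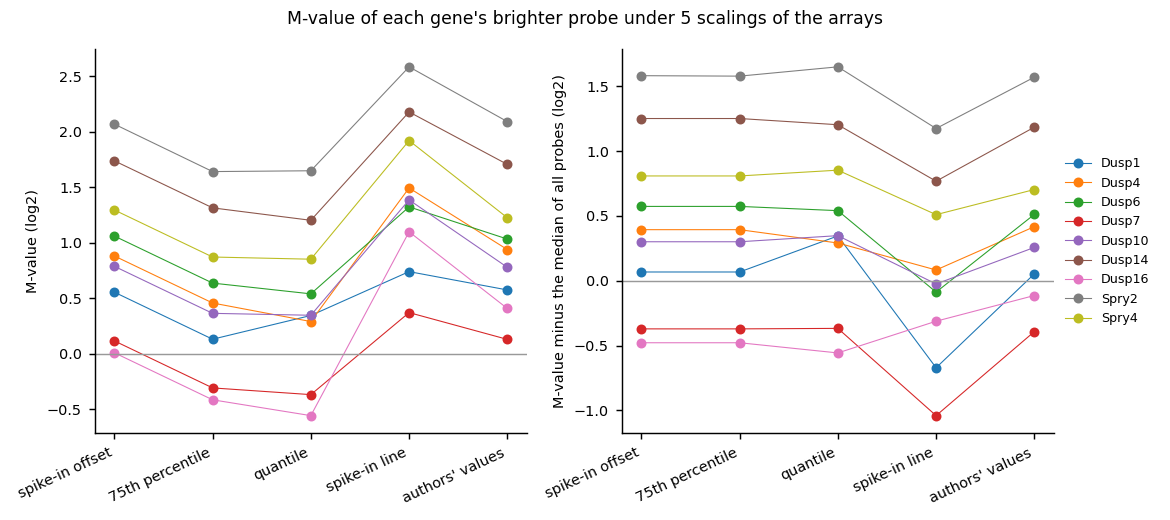
M-value of the brighter probe of each gene (left) and the same minus the median of all probes (right), both on the log2 scale, under 5 scalings of the arrays (horizontal axis, categories joined by lines only to follow a gene). Spry2 and Dusp14 have the highest values at left in all 5, from 1.64 to 2.59 and from 1.20 to 2.18, while Dusp7 and Dusp16 change sign between scalings.

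The polysomal and non-polysomal levels were also compared within each time. At 0 h the polysomal level exceeded the non-polysomal level by more than 1 in 3 of the 12 probes, Dusp10, Dusp4 and Dusp6, against 27.4% of all probes, and was lower by more than 1 in 1, the brighter Spry2 probe, against 9.81%. At 6 h it exceeded it in 7 probes, against 37.4% of all probes, and was lower by more than 1 in 0, against 6.41%, while 1 probe (Dusp7) was lower at an unadjusted p below 0.05. Among the probes that passed the filter for signal, 43.3% were higher by more than 1 at 0 h and 55.4% at 6 h. The 3 of 12 at 0 h thus lie near the share of all probes and below the former share. The 7 of 12 at 6 h lie near the latter share. The 7 include the dimmer Spry4 probe, which was near background. At 6 h the excess was 5.32-fold for Dusp10, 4.72-fold for Dusp4, 4.70-fold for Dusp14, 4.49-fold for Dusp6 and 3.90-fold for Spry4. With scaling to the 75th percentile the excess of Dusp10 was still called, while those of the other genes were 0.92, 0.92, 0.85 and 0.65 on the log2 scale, below the limit of 1. At 0 h under this scaling the excess was 0.73 for Dusp10, 0.47 for Dusp4 and 0.22 for Dusp6, all below the limit. The polysomal excess of Dusp1 was smaller, 0.33 at 0 h and 0.88 at 6 h on the log2 scale, and turned to -0.56 and -0.43 with scaling to the 75th percentile and to -0.59 and -0.24 with quantile normalization. Dusp14 at 0 h (0.49) and Spry4 at 0 h (0.67) also turned negative under both, as did the brighter Spry2 probe at 6 h. The differences of Dusp4, Dusp6, Dusp7 and Dusp10 kept their sign at both times. Relative to the median of all probes (0.15 at 0 h and 0.68 at 6 h), Dusp10 differed by 1.47 and 1.73 and Dusp7 by -0.63 and -1.04. Relative to the median of the probes that passed the filter for signal (0.76 and 1.21), Dusp10 differed by 0.86 and 1.20 and Dusp7 by -1.24 and -1.57.

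Among 16581 probes of other genes rated above background on all arrays, the levels most like those of the brighter Spry2 probe were those of Tagln (Pearson r = 0.978), Doc2a (0.975) and Cacnb1 (0.975) over 11 arrays. Tagln encodes transgelin, an actin-binding protein of smooth muscle and fibroblasts, and its M-value was 2.30. For Dusp7, the member with the lowest M-value among those above background on every array, the most alike were Ing2 (0.989), Fbxw7 (0.986) and Sec11c (0.986) over 12 arrays. Fbxw7 encodes the substrate-binding part of a ubiquitin ligase, and its M-value was -0.04. Such correlations rest largely on the means of the 4 groups, which all probes share.

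Around these genes, 22 other MAPK phosphatases and feedback inhibitors were on the array. In the polysomal pool 4 of them rose and 3 fell, against 19.2% and 5.01% of all probes (27.0% and 7.76% of those that passed the filter for signal). Those that rose were Errfi1, an inhibitor of EGF receptor signalling (4.74), Dusp2, a nuclear phosphatase (4.31), Spry3 (1.40) and Spred2 (1.14). Those that fell were Dusp8, Il17rd (-2.89) and the RAS GTPase activator Nf1 (-1.25), and these names follow from the counts and were chosen after their values were seen. Dusp8 was well above background on all 0 h arrays and on no 6 h array. Its estimated fall was 7.72-fold in the polysomal and 18.4-fold in the non-polysomal pool. Both sizes rest on 6 h signals near background and are uncertain. In the non-polysomal pool 3 rose (Dusp2, Errfi1 and Rasa2) and 3 fell (Dusp3, Dusp8 and Il17rd), against 8.09% and 8.14% of all probes (12.4% and 12.3% of those that passed the filter). The M-value was above 1 for Dusp3 and Dusp2, against 12.1% of all probes, and below -1 for 0 of 22, against 1.31%. It was negative for 2 at an unadjusted p below 0.05, and Dusp8 has no measured M-value because both its 6 h signals were near background. Dusp3, a phosphatase of ERK and JNK, had the highest M-value of the list, 1.36 ± 0.12 (SE, adjusted p = 2.4e-05), with a non-polysomal change of -1.66 and a polysomal change of -0.30. Spred3 followed with 1.35 (adjusted p = 0.21) on a probe above background on 5 arrays. The lowest were Rasa2 with -0.63 (adjusted p = 0.0027) and Nf1 with -0.41 (adjusted p = 0.078).

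Of the MAP kinase cascade, from RAS to the MAP kinases, 35 of 36 genes were measured. In the polysomal pool 13 rose and 0 fell, against 19.2% and 5.01% of all probes (27.0% and 7.76% of those that passed the filter for signal). There 3 were lower at an unadjusted p below 0.05. In the non-polysomal pool 9 rose and 2 fell, Map2k6 and Gab1, against 8.09% and 8.14% of all probes (12.4% and 12.3% of those that passed the filter). No gene of the cascade had a called M-value in the limma fit, although 21 had a positive one at an unadjusted p below 0.05. At an adjusted p below 0.05 the number was 20 of 35, against 32.1% of all probes and 47.2% of those that passed the filter for signal. Its median M-value was 0.47, against 0.49 for all probes. The highest were the p38 kinase Mapk13 with 1.66 (adjusted p = 0.10) and the scaffold Ksr1 with 0.98 (adjusted p = 0.0052), and the lowest Mapk12 with -0.34 (adjusted p = 0.37) and Map3k5 with -0.26 (adjusted p = 0.67). The absence of calls depends on the scaling, since 16 of the 35 had an M-value above 1 with the line through the spike-ins and 1 in the deposited log2 values. Of the 41174 probes of the array, 25912 and 3402 were above 1 in these settings.

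Of the ERK effectors and target genes, 16 of 18 were measured, with 10 risen and 3 fallen in the polysomal pool and 6 risen and 3 fallen in the non-polysomal pool. Of all probes, 19.2% rose and 5.01% fell in the polysomal pool and 8.09% rose and 8.14% fell in the non-polysomal pool. Among probes that passed the filter for signal these shares were 27.0%, 7.76%, 12.4% and 12.3%. The genes that fell were the transcription factors Egr1 and Etv1 and the receptor Epha4 in both pools. The M-value was above 1 for 3, against 12.1% of all probes (17.0% of those that passed the filter). These were the kinases Mknk1 and Mknk2, which phosphorylate the cap-binding factor eIF4E, and the transcription factor Srf. It was below -1 for 0, against 1.31% of all probes, with 2 negative at an unadjusted p below 0.05. Both with the 75th percentile and with quantile normalization, 0 were above 1 and 1 was below -1. Of the 41174 probes of the array, 1545 were above 1 and 1431 below -1 with the 75th percentile. With quantile normalization these were 1268 and 1573. With the line through the spike-ins 10 of the 16 genes were above 1, as were 25912 of the 41174 probes. Etv5 had 1.32 (adjusted p = 0.063) on a probe above background in the polysomal pool alone, Mknk1 1.25 (adjusted p = 1.2e-04), Rps6ka3 -0.50 (adjusted p = 0.0022) and Epha4 -0.74 (adjusted p = 0.074).

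All 18 receptors and growth factors upstream of RAS had a probe, of which 16 passed the filter for signal. In the polysomal pool 8 rose and 3 fell (Egfr, Pdgfra and Met), against 19.2% and 5.01% of all probes (27.0% and 7.76% of those that passed the filter). The 8 include Areg (1.09), which was well above background on no array. In the non-polysomal pool 5 rose (Ereg, Fgf2, Hbegf, Fgfr1 and Fgfr3) and 1 fell (Egfr), against 8.09% and 8.14% of all probes (12.4% and 12.3% of those that passed the filter). Egfr, the EGF receptor, fell by 3.06 in the polysomal and by 1.81 in the non-polysomal pool, and its M-value of -1.25 ± 0.14 (SE, adjusted p = 1.1e-04) was the only one of the 18 called below -1. With the line through the spike-ins 0 of the 18 were below -1, and with quantile normalization 2. Of the 41174 probes of the array, 61 and 1573 were below -1 in these settings. Ereg, the EGF receptor ligand epiregulin, rose by 5.44 in the polysomal pool and had an M-value of 0.81 (adjusted p = 0.017). At 0 h it was well above background on only 2 arrays of each pool, so these sizes are uncertain. Fgf2 had an M-value of 1.64 (adjusted p = 0.012), but it was not well above background in the polysomal pool at 0 h. Its estimated polysomal rise of 31.9-fold rests on that signal near background and is uncertain. Pdgfra had -0.33 (adjusted p = 0.079).

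**Figure D5:**
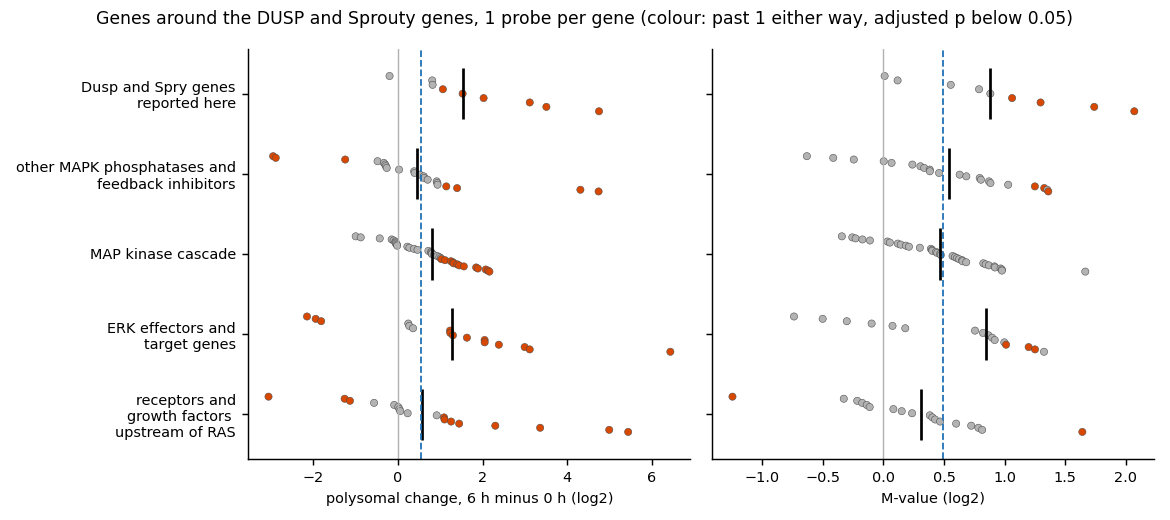
Polysomal change from 0 h to 6 h (left) and M-value (right), both on the log2 scale, for the 9 DUSP and Sprouty genes and the 4 lists of genes around them, with 1 point per gene (its brightest probe). Coloured points passed 1 or -1 with an adjusted p below 0.05, black bars are list medians, and the dashed lines are the medians of all probes (0.54 and 0.49). The cascade has no coloured point at right, and Egfr is the single coloured point below -1 there. The coloured points include Dusp8, Fgf2 and Areg, whose signal was near background in at least 1 group.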

How the data were processed

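The RNA of 3T3-L1 cells was measured on 12 one-color Agilent arrays, 3 for each group of time and gradient pool. The deposited scanner files, made with Feature Extraction 10.7.1.1, hold a background-subtracted, detrended intensity per spot that is not normalized between arrays. The table of log2 values made by the authors holds the log2 median pixel intensity plus a constant per array. Here log2 of the background-subtracted intensity was used without the spots that the software marked as outliers, and each array was shifted by the mean of its 10 spike-in transcripts. Probes were named through RefSeq accessions (GRCm38.p6), and a gene was represented by its brightest probe (lead probe) unless stated. The 4 groups were fitted in R 4.3.3 with limma 3.58.1 (lmFit, contrasts.fit, eBayes, Benjamini-Hochberg over all probes), with a limit of 1 and an adjusted p of 0.05, following the methods of the study. The number of arrays limits the precision.

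The named genes were all 10 members, from each list the pair with the highest and the pair with the lowest M-value among detected lead probes, and the 3 genes most correlated with the member of the highest and of the lowest M-value. The members, lists, markers and tests were chosen with earlier results of these data known. The fit was tested on simulated arrays of 25019 probes, where 36 of 40 probes with a true M-value of 2 and 31 of 40 with 1.5 were called, and 8 of 24819 unchanged probes. The simulated noise was independent between arrays and held no error of scaling. These counts therefore do not cover wrong calls that come from the scaling. The alternatives were other scalings, the authors' log2 values, normexp, no dim probes, outlier spots kept, the mean over a gene's probes, the replicate number as a block, and leaving out arrays.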

Additional observations from a re-analysis of the deposited data

Results flagged for a closer look

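For 7 of the 9 DUSP and Sprouty genes with a probe, the change over 6 h in the polysomal pool differed from that in the non-polysomal pool by the test of the difference itself, the M-value of the limma fit, at an adjusted p below 0.05. These M-values were 2.07 for Spry2, 1.74 for Dusp14, 1.30 for Spry4, 1.06 for Dusp6, 0.88 for Dusp4, 0.79 for Dusp10 and 0.56 for Dusp1, all on the log2 scale. The median of all probes was 0.49, so the value of Dusp1 was 0.07 above it, and 32.1% of all probes and 47.2% of those that passed the filter for signal had a positive M-value at this adjusted p. Dusp1 did not pass with scaling to the 75th percentile (0.13, adjusted p = 0.21), nor Dusp4 with quantile normalization (0.29, adjusted p = 0.20). Over the 23 settings of each gene, Dusp1 and Dusp4 passed in 21 and Dusp10 in 22. The value of Spry2 was found with the brighter of its probes alone.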

How the results depend on the processing

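Results were computed again with quantile normalization, the 75th percentile, a line fitted to the spike-ins, the deposited log2 values, no dim probes, outlier spots kept, the mean over a gene's probes, the replicate block, and without each array or replicate number. The normexp correction with an offset of 50 as planned was not run, since its fit placed the background mean below -100 on 3 arrays and the files hold the median in place of the mean signal. Leaving out spots of non-uniform background, which was chosen after seeing the data, let it run. All other counts of the DUSP and Sprouty probes stayed within 1.5 times their value.

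With the 75th percentile 3 probes had an M-value above 1, where 1545 of the 41174 probes of the array did. Under it 0 were higher and 3 lower in the polysomal pool at 0 h, and 1 higher and 4 lower at 6 h. With quantile normalization these counts were 2, 0, 3, 1 and 3, and 1268 probes of the whole array had an M-value above 1. The median polysomal minus non-polysomal difference of all probes was -0.74 at 0 h and -0.63 at 6 h with the 75th percentile. With quantile normalization it was 0.03 and 0.02. Shares of all probes called higher or lower are not given for these scalings, so those counts cannot be set against the array. With the straight line 10 probes had an M-value above 1, where 25912 probes of the whole array did. Under it 11 had risen in the polysomal pool, where the median change of all probes was 1.41. The single called non-polysomal fall, Spry2, was lost with normexp (0 probes), and leaving out arrays gave 0 to 1, with 0 without replicate 3 of the 0 h non-polysomal arrays, replicate 2 or 3 of the 6 h non-polysomal arrays, or all of replicate 3. The M-value of Dusp6 was 0.98, below the limit, without replicate 1 of the 0 h polysomal arrays, and that of Dusp4 was 1.00, above it, without replicate 3. The causes were not tested.

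Signs turned as follows. With the 75th percentile, the M-value was -0.31 for Dusp7 and -0.41 for Dusp16, and the non-polysomal change of Dusp10 -0.029. Under it the polysomal minus non-polysomal difference at 0 h was -0.56 for Dusp1, -0.40 for Dusp14, -0.67 for Dusp16 and -0.22 for Spry4, and at 6 h -0.43 for Dusp1, -1.09 for Dusp16 and -1.05 for Spry2. With quantile normalization, the M-value was -0.37 for Dusp7 and -0.56 for Dusp16, the polysomal change of Dusp7 -0.018 and the non-polysomal change of Dusp10 -0.013. Under it the difference at 0 h was -0.59 for Dusp1, -0.40 for Dusp14 and -0.18 for Spry4, and at 6 h -0.24 for Dusp1, -0.35 for Dusp16 and -1.10 for Spry2. With the straight line, the polysomal change of Dusp16 was 0.72 and the non-polysomal change of Dusp10 -0.087. The polysomal change of Dusp16 was 0.39 with normexp and 0.35 in the deposited values, and its difference at 0 h -0.040 and -0.030. The non-polysomal change of Dusp10 was -0.030 in the deposited values, and that of Spry2 0.0069 with the mean of its probes. Leaving out arrays, the M-value of Dusp16 ran from -0.45 to 0.48, its non-polysomal change from -0.66 to 0.16 and its difference at 6 h from -0.23 to 0.68, the M-value of Dusp7 from -0.030 to 0.25, and the non-polysomal change of Dusp10 from -0.037 to 0.095. The genes of the lists with an M-value above 1, Dusp8 counted, numbered 0 to 14 for the phosphatases and feedback inhibitors, 0 to 10 for the ERK effectors, 0 to 16 for the cascade and 0 to 4 for the receptors over these settings. The highest number of each list came with the straight line, where 25912 of the 41174 probes of the array were above 1.

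The replicate block gave an M-value of 2.09 for Spry2 (adjusted p = 0.0011) and changed no call of a DUSP or Sprouty probe. The replicate number is also the slide, and the arrays did not meet the rule for pairs, that every correlation be above 0.1. Deviations of same-numbered arrays correlated at -0.10 to 0.42 (median 0.068, against -0.038 for other pairs), 16 of 18 were positive, 4 were above 0.1, and 8 of 12 arrays correlated best with an array of their own number. Signal over background limits Dusp16 and the dimmer Spry4 probe.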
